A study of Mus musculus with 7 samples.

Results

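Endocannabinoids are lipid messengers that act on the cannabinoid receptors, and their levels are set by the enzymes that make and break them. The genes described here encode 9 such enzymes: Dagla, Daglb, Mgll, Abhd6, Abhd12, Napepld, Abhd4, Gde1 and Faah. They were chosen by name as enzymes of 2-arachidonoylglycerol (2-AG) and anandamide metabolism, with earlier results of these data known. All 9 were found among the 22248 genes of the deposited count table, and all 9 passed the filter on low counts that left 14654 genes for testing.

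The RNA came from synaptoneurosomes, a tissue fraction of resealed presynaptic endings that keep part of the postsynaptic side, prepared from the hippocampus of wild-type C57Bl/6J female mice. Sub-chronic AM6545 treatment was represented by 4 libraries, lettered B, D, E and F, and vehicle treatment by 3, lettered B, D and E. AM6545 is an antagonist of the CB1 cannabinoid receptor that enters the brain poorly. The age of the mice, the dose, the duration of treatment and the number of animals per library are not given in the sources used here. No source says that each library came from separate animals, so the p-values measure the spread between these libraries. The question here was whether the mRNAs of these enzymes differed in the synaptic fraction between AM6545 and vehicle.

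In hippocampal neurons, 2-AG is made on demand from diacylglycerol in the postsynaptic membrane by diacylglycerol lipase alpha (Dagla), with the related lipase beta (Daglb) more prominent in microglia. It travels back across the synapse to CB1 receptors on nerve endings and is hydrolysed mainly by monoacylglycerol lipase (Mgll), and also by the membrane-bound hydrolases Abhd6 and Abhd12. Anandamide is released from N-acyl phosphatidylethanolamines either directly by the phospholipase D Napepld or by steps that use the lipase Abhd4 and the phosphodiesterase Gde1. The membrane amidase Faah breaks it down.

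Most of these enzymes are serine hydrolases, in which the catalytic serine commonly sits between glycines, in the order glycine, any residue, serine, any residue, glycine. Coding sequences of GENCODE release M21 (GRCm38) were searched in frame, on the coding strand only, for 5 codons in that order, with any codon of glycine and of serine allowed. At least 1 match was present in 7 of the 9 enzymes, against 18.4% of 21584 protein-coding genes. Since most of the enzymes are serine hydrolases, a share above that of all genes follows from their choice. For the enzymes 1 chosen transcript each was searched, and for the background the longest complete coding sequence of each gene. Napepld, a metal-dependent enzyme, and Gde1 had no match. The windows below are shown because they let this stretch be compared across 6 of the enzymes. Each is 45 bases long, 5′ to 3′, with the 15 matching bases in capitals and the position of the serine codon counted from the start codon. Positions are those in Dagla-201, Daglb-201, Mgll-204, Abhd6-202, Abhd12-201 and Abhd4-202. Abhd4-202 codes for 318 residues and Abhd4-201 for 355, so the Abhd4 position applies to the shorter form.
Dagla, serine codon 472: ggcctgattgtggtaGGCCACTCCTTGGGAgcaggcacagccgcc
Daglb, serine codon 443: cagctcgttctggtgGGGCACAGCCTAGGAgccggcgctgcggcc
Mgll, serine codon 122: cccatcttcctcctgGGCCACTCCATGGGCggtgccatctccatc
Abhd6, serine codon 148: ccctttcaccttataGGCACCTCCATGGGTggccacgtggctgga
Abhd12, serine codon 246: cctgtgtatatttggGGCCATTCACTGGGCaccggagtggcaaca
Abhd4, serine codon 122: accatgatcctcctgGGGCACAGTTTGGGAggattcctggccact
Dagla held 3 matches in all, and Mgll and Abhd12 held 2 each; the match with a histidine codon before the serine is the one printed for them. Faah, which belongs to another hydrolase family, held 2 overlapping matches at codons 217 and 218. A match describes the letters and is not evidence of a catalytic site.

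Before the enzymes are taken in turn, the libraries need a short description. Library totals ran from 19174649 to 25894733 estimated counts, and the 9 enzymes together took 0.169% to 0.183% of counts in AM6545 and 0.179% to 0.200% in vehicle. Mitochondrially encoded genes took 5.07% to 6.66% of counts in the AM6545 libraries, 6.38% and 6.11% in vehicle D and E, and 9.83% in vehicle B, which stood apart. Synaptic fraction markers (Syn1, Snap25, Syp, Dlg4, Shank1 and Homer1) were all detected, at summed levels of 6389 to 6624 CPM (counts scaled to a common library size by TMM) in AM6545 and 5944 to 6110 CPM in vehicle, which did not overlap. Shank1 and Dlg4, which encode postsynaptic scaffolds, were the 2 of 6 lower in AM6545, both at an unadjusted p under 0.05, and Snap25 and Syp made up most of the sum. Marker sums for excitatory neurons were 3951 to 4310 CPM against 4322 to 5129 CPM, which did not overlap either, with 7 of 8 markers lower in AM6545. For interneurons they were 916 to 1040 CPM against 1034 to 1212 CPM, with 6 of 8 lower. Microglial markers summed to 1158 to 1277 CPM against 1221 to 1565 CPM, with 8 of 10 lower. Astrocyte markers summed to 4094 to 5136 CPM against 4279 to 5547 CPM, with 4 of 8 lower, and oligodendrocyte markers to 17215 to 20330 CPM against 16888 to 23136 CPM, with 5 of 8 lower. Endothelial and mural markers summed to 85.2 to 123 CPM against 86.6 to 119 CPM, with 1 of 7 lower, and choroid plexus markers to 411 to 1948 CPM against 1555 to 2758 CPM, with 5 of 5 lower. Markers lower in AM6545 at an unadjusted edgeR p under 0.05 were 3 of 8 excitatory, 3 of 8 interneuron and 5 of 10 microglial. They were also 1 of 8 astrocyte, 1 of 8 oligodendrocyte, 0 of 7 endothelial and mural and 0 of 5 choroid plexus markers. In no list, the synaptic one included, was a marker higher at that p. Over all genes, 8.70% were lower and 5.86% higher at that p. No marker was at 0 in all libraries. The part of these differences, and of vehicle B, in the enzyme results was not tested. In bulk samples like these, fewer cells or endings of a type and less RNA in each cannot be told apart.

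None of the 9 enzymes differed between AM6545 and vehicle at an adjusted p under 0.05 (edgeR's quasi-likelihood test, Benjamini-Hochberg over all genes tested). The test called 1 gene of 14654, or 0.00682%. DESeq2 and limma-voom also called none of the 9, with 205 and 118 genes called over the whole table. At an unadjusted p under 0.05, 1 of the 9 enzymes (Mgll) was called, in the direction of lower in AM6545, against a background of 8.70% of genes lower and 14.6% in either direction. The fitted log2 fold change was below 0 for 8 of the 9 enzymes, against 48.6% of all genes. The median was -0.12 for the enzymes and 0.01 for all genes. Under total-count scaling 6 of the 9 were below 0, with a median of -0.08 for the enzymes and 0.04 for all genes. The number was also 6 with the replicate letter as a block, without AM6545 F and without vehicle E. For 7 of the 9 enzymes, all but Dagla and Mgll, the 95% interval excluded a 1.5-fold difference in either direction. Vehicle B held the highest value of 5 enzymes (Dagla, Mgll, Abhd6, Abhd12 and Gde1) and the lowest of Napepld.

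**Figure D1:**
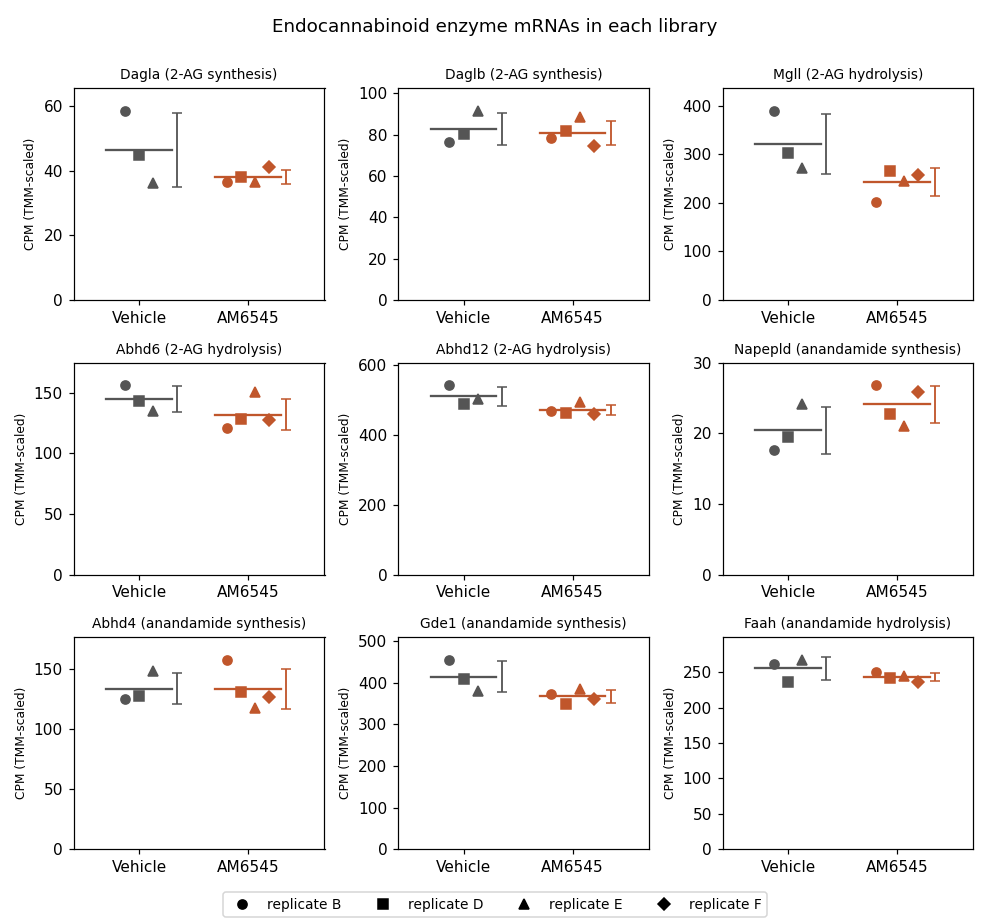
Level of each enzyme mRNA in each library, in TMM-scaled CPM on linear axes that start at 0. Marker shape gives the replicate letter, horizontal lines are group means and bars are SD (n = 4 AM6545, n = 3 vehicle). Mgll is the enzyme whose groups do not overlap, with all 4 AM6545 libraries below 270.7 CPM, the lowest vehicle library.

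The 2 enzymes of 2-AG synthesis gave no call. Dagla (chr19:10245265-10304877, minus strand, GRCm38), the main source of 2-AG at synapses, was at 36.5, 38.0, 36.4 and 41.1 CPM in AM6545 B, D, E and F and at 58.5, 44.7 and 36.0 CPM in vehicle B, D and E. The groups overlapped: vehicle E was the lowest of all 7 libraries and vehicle B the highest. The means were 38.0 ± 2.20 CPM (SD, n = 4) and 46.4 ± 11.3 CPM (SD, n = 3). The log2 fold change was -0.29 (SE 0.14, 95% interval -0.60 to 0.02, edgeR adjusted p = 0.369). The vehicle SD was several times that of AM6545, and the value moved to -0.09 without vehicle B and to -0.44 without vehicle E, where its edgeR adjusted p was 0.0469. Leaving out vehicle E also raised the number of genes called over the whole table from 1 to 944. With each library corrected for its trend with GC content and transcript length, the log2 fold change of Dagla was -0.14.

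Daglb (chr5:143464584-143505942, plus strand), the second diacylglycerol lipase, was at 78.1, 81.9, 88.3 and 74.4 CPM in AM6545 B, D, E and F and at 76.3, 80.2 and 91.5 CPM in vehicle B, D and E. The ranges lay almost on top of each other, with replicate E the highest in both groups. The log2 fold change was -0.03 (SE 0.10, 95% interval -0.26 to 0.19, edgeR adjusted p = 0.891), and its sign changed under total-count scaling. In the annotation 24.1% of the exonic bases of Daglb lie opposite exons of Rac1, a far more abundant GTPase gene with 80757 counts in all libraries. Whether counting used strand is not given in the sources used here, so some Daglb counts could come from Rac1. Of the summed per-length level of both lipases, Dagla took 28.0% ± 2.46 in AM6545 (SD, n = 4), against 31.6% ± 7.10 in vehicle (SD, n = 3).

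Among the 3 hydrolases of 2-AG, Mgll had the smallest p of the 9 enzymes. Mgll (chr6:88724412-88828360, plus strand), which performs most 2-AG hydrolysis in brain, was at 201.9, 265.8, 244.6 and 258.0 CPM in AM6545 B, D, E and F and at 389.4, 302.9 and 270.7 CPM in vehicle B, D and E. Every AM6545 library was below every vehicle library, but AM6545 D and vehicle E were close. Groups that did not overlap, with AM6545 lower, were found for 1 of the 9 enzymes and for 7.19% of all genes. Groups that did not overlap with AM6545 higher were found for 0 of the 9 and for 6.63% of all genes, and in either direction for 13.8%. The means were 243 ± 28.5 CPM (SD, n = 4) and 321 ± 61.4 CPM (SD, n = 3). The log2 fold change was -0.40 (SE 0.13, 95% interval -0.70 to -0.11), a difference of -24.4%. The unadjusted p was 0.0109 and the adjusted p 0.245 by edgeR's test across all genes, so it did not pass. Without vehicle B the log2 fold change was -0.24 (edgeR adjusted p = 0.784), and without vehicle E it was -0.51 (edgeR adjusted p = 0.0375), so leaving out 1 vehicle library changes whether Mgll is called. That fit without vehicle E called 944 genes in all, against 1 with all libraries, so the change was not particular to Mgll.

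Abhd6 (chr14:8002902-8056763, plus strand), a hydrolase of the postsynaptic membrane, was at 121.0, 128.4, 150.4 and 127.8 CPM in AM6545 B, D, E and F and at 156.0, 143.3 and 134.5 CPM in vehicle B, D and E. AM6545 E lay inside the vehicle range and the other three AM6545 libraries below it. The log2 fold change was -0.13 (SE 0.10, 95% interval -0.36 to 0.09, edgeR adjusted p = 0.554). It was -0.07 without vehicle B, and -0.20 without AM6545 E or with the GC and length correction. A stretch of 28.0% of the longest counted Abhd6 transcript is 96.1% identical to Gm1833, so reads from that stretch could be split between them.

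Abhd12 (chr2:150832493-150904741, minus strand), a hydrolase of lysophosphatidylserine as well as 2-AG, was at 469, 464, 494 and 460 CPM in AM6545 B, D, E and F and at 542, 489 and 502 CPM in vehicle B, D and E. The groups overlapped through AM6545 E alone. The log2 fold change was -0.12 (SE 0.09, 95% interval -0.31 to 0.08, edgeR adjusted p = 0.554). It was -0.07 without vehicle B and -0.05 with the GC and length correction. Of the summed per-length level of the 3 hydrolases, Mgll took 23.8%, 29.1%, 25.8% and 28.7% in AM6545 B, D, E and F and 33.8%, 30.5% and 28.0% in vehicle B, D and E. These shares overlapped. Abhd12 took 58.4% ± 2.33 (SD, n = 4) and 55.2% ± 2.73 (SD, n = 3), and Abhd6 14.7% ± 0.87 and 14.1% ± 0.45.

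The 3 enzymes of anandamide synthesis did not move one way. Napepld (chr5:21662901-21701396, minus strand), the phospholipase D that releases anandamide, was the single enzyme with a fitted value above 0. It was at 26.8, 22.8, 21.1 and 25.8 CPM in AM6545 B, D, E and F and at 17.6, 19.5 and 24.2 CPM in vehicle B, D and E. Vehicle E lay inside the AM6545 range. The means were 24.1 ± 2.66 CPM (SD, n = 4) and 20.4 ± 3.38 CPM (SD, n = 3), and the log2 fold change was 0.24 (SE 0.13, 95% interval -0.04 to 0.53, edgeR adjusted p = 0.412). Without vehicle B it was 0.15, without vehicle E 0.38 (edgeR adjusted p = 0.0887), and with the GC and length correction 0.08. The exons of Napepld hold 45.5% G and C, against 58.8% for Dagla.

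Abhd4 (chr14:54254188-54270637, plus strand), which removes acyl chains from anandamide precursors, was at 157.5, 131.0, 117.7 and 127.0 CPM in AM6545 B, D, E and F and at 125.1, 127.7 and 148.1 CPM in vehicle B, D and E. The group means were 133.3 ± 17.0 CPM (SD, n = 4) and 133.6 ± 12.6 CPM (SD, n = 3), the closest pair among the enzymes, and the edgeR interval of the log2 fold change ran from -0.25 to 0.25. Gde1 (chr7:118688545-118705778, minus strand), the phosphodiesterase of the same route, was at 374, 350, 386 and 360 CPM in AM6545 B, D, E and F and at 455, 409 and 381 CPM in vehicle B, D and E. The groups overlapped because AM6545 E exceeded vehicle E. The log2 fold change of Gde1 was -0.18 (SE 0.10, 95% interval -0.39 to 0.03, edgeR adjusted p = 0.413). It was -0.10 without vehicle B and -0.07 with the GC and length correction.

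Faah (chr4:115967145-116017926, minus strand), the amidase that ends anandamide signalling, was at 251, 242, 245 and 236 CPM in AM6545 B, D, E and F and at 262, 237 and 268 CPM in vehicle B, D and E. Its AM6545 libraries were among the tightest of any enzyme, at 243 ± 6.10 CPM (SD, n = 4) against 256 ± 16.3 CPM (SD, n = 3). The log2 fold change was -0.07 (SE 0.09, 95% interval -0.26 to 0.12, edgeR adjusted p = 0.733). It was -0.12 without vehicle D, -0.04 without vehicle E, -0.03 with total-count scaling and -0.01 with limma-voom.

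**Figure D2:**
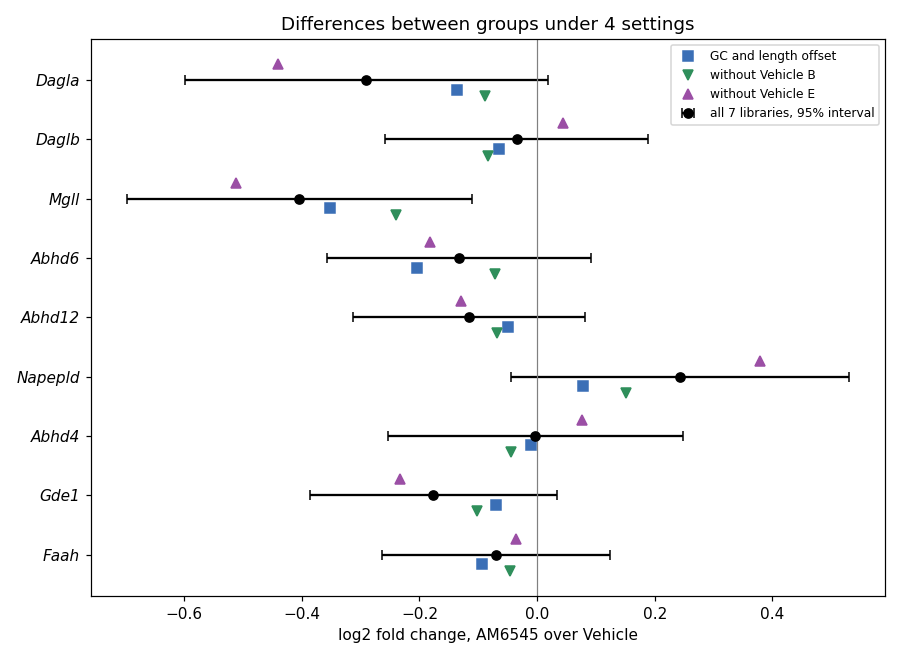
Log2 fold change of each enzyme, AM6545 over vehicle, with its 95% interval from all 7 libraries (black) and its value under 3 other settings (coloured). The Mgll interval runs from -0.70 to -0.11, the other 8 include 0, and leaving out vehicle B moves Dagla to -0.09 and Mgll to -0.24.

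To set the enzymes against each other, levels were expressed per length, as estimated counts per kilobase of transcript scaled to the same total in every library. Over all 7 libraries Gde1 and Abhd12 were the most abundant, both with a mean of 486 and each above 98.2% of the tested genes. They could not be ordered, since Gde1 was above Abhd12 in 3 of 7 libraries. Mgll followed at 245 (range 183 to 305), below Abhd12 in 7 of 7 libraries. Faah at 130 and Abhd6 at 123 were not separable, with Faah above in 4 of 7 libraries, and Abhd4 at 106 was below Abhd6 in 6 of 7 with overlapping ranges. The length used for Abhd4 came from transcripts matched to the annotation, which held 8.27% of its counts. Its level and its place in this order are therefore uncertain.

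The diacylglycerol lipases and Napepld were the scarce members on this scale. Daglb was at 34.7, a factor of 3.05 below Abhd4 in the mean. Dagla was at 14.5, a factor of 2.40 below Daglb and lower in 7 of 7 libraries. Napepld was at 11.7, above 47.5% of tested genes, and below Dagla in 6 of 7 libraries with overlapping ranges. The level per length of Daglb carries the Rac1 overlap noted above, and that of Abhd4 the uncertain length. With the longest annotated transcript as the length, Mgll went from 245 to 160 and Faah from 130 to 105, which placed Faah below Abhd6 (144) and Abhd4 (124).

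**Figure D3:**
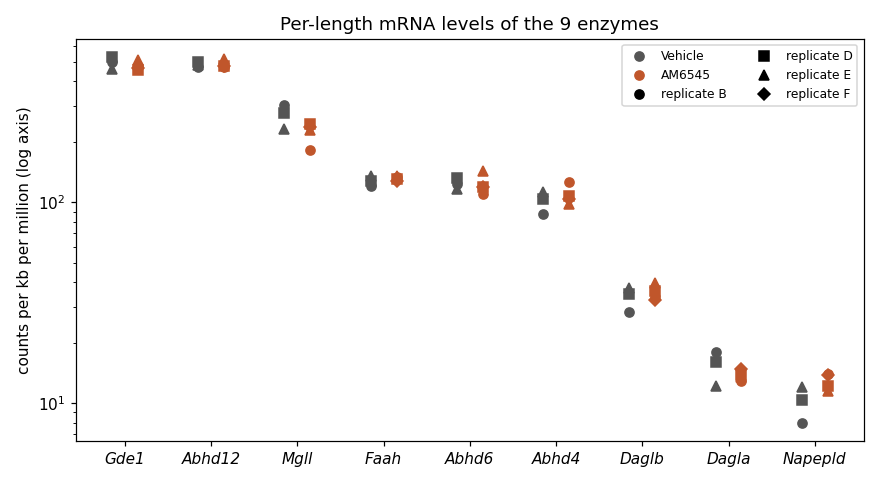
Per-length level of each enzyme mRNA in each library, in scaled counts per kilobase of transcript on a log axis, ordered by the mean over 7 libraries. Gde1 and Abhd12 lie at 454 to 528 in every library, and Dagla and Napepld at 18.0 or below.

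The transcript table held 48 transcripts of the 9 genes, of which 29 were tested. None had an edgeR adjusted p under 0.05 (lowest 0.559), against 0.0177% of the 33962 transcripts tested. DESeq2 called 1 of the enzymes' transcripts (Abhd6-202), among 431 transcripts that it called over the whole table. An unadjusted p under 0.05 was found for 5 of the 29, against 8.39% of all transcripts, and groups that did not overlap in CPM for 6 of the 29, against 10.8%. Dagla, Daglb, Gde1, Abhd12 and Faah were each carried almost wholly by 1 transcript, with 99.2%, 99.2%, 98.4%, 97.2% and 95.1% of the gene's counts. For Abhd4, the 8 transcripts that could be matched to the annotation held 8.27% of the gene's counts, so its transcripts are not described.

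Abhd6 was split between Abhd6-202, which codes for 336 residues, and Abhd6-203, which lacks the exon with the usual start codon and codes for 289 residues from a later one. The coding part of that exon (chr14:8028271-8028389, GRCm38, plus strand, 119 bases, start codon in capitals) is printed because it is what separates the forms.
Abhd6 exon 2, coding part: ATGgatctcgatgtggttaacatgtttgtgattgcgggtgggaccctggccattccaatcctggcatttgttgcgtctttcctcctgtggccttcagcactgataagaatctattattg
The serine codon of the printed window is at position 148 in Abhd6-202 and at position 101 in Abhd6-203, so both forms keep that match. Abhd6-203 took 14.6%, 15.4%, 19.7% and 18.2% of Abhd6 counts in AM6545 B, D, E and F and 9.43%, 8.53% and 0% in vehicle B, D and E. All AM6545 shares were above all vehicle shares. In vehicle E it was listed at 0, although the gene had 2485 counts there; a count of 0 allows a share of up to 0.121% for counting error, but an estimate of 0 can also be a failed assignment between similar transcripts. The difference in share was 10.99 percentage points, and 8.0 without vehicle E. As a level, Abhd6-203 had a log2 fold change of 1.32 with an SE of 1.10 (edgeR adjusted p = 0.788), and 0.74 without vehicle E.

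The full-length form had values in the other direction. Abhd6-202 was at 103.5, 109.1, 121.7 and 104.3 CPM in AM6545 B, D, E and F and at 141.6, 132.0 and 132.8 CPM in vehicle B, D and E, so the groups did not overlap. Its log2 fold change was -0.31 (SE 0.08, unadjusted p 0.007, edgeR adjusted p = 0.559). DESeq2 gave an adjusted p of 0.0412, in a fit that called 431 transcripts over the whole table. Of 27 transcripts of the enzymes for which shares were compared, 7 had groups that did not overlap, against 8.62% of 27938 transcripts of all genes. These 7 were both Abhd6 forms, Abhd12-201, Abhd12-203, Faah-202, Gde1-201 and Gde1-204. Shares within a gene sum to 100%, so they are not independent of each other.

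**Figure D4:**
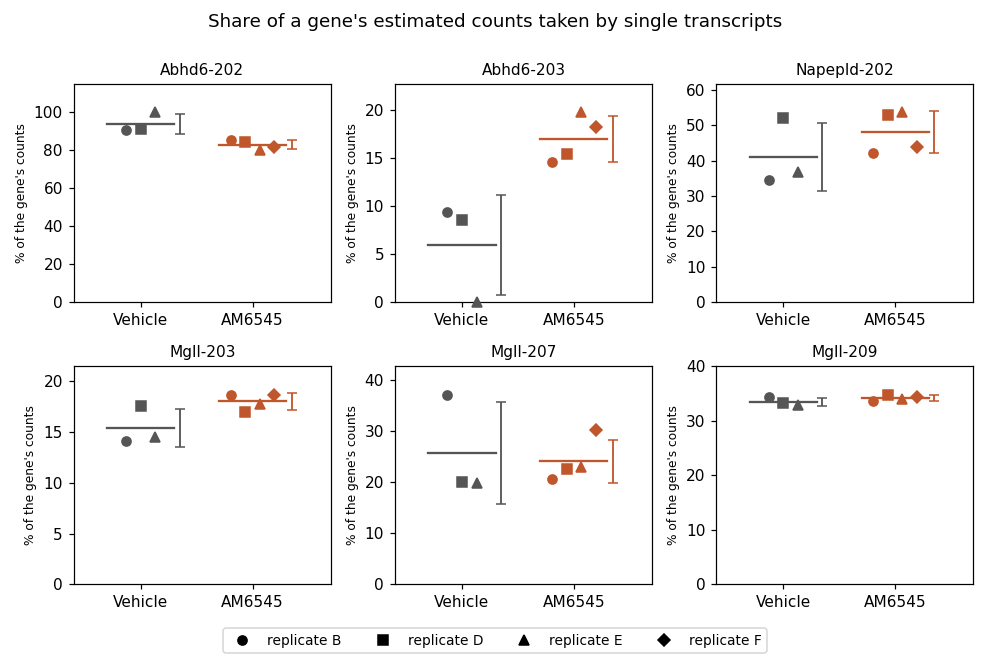
Share of a gene's estimated counts taken by single transcripts in each library, in percent on linear axes that start at 0. Symbols are libraries, lines are means and bars are SD (n = 4 AM6545, n = 3 vehicle). Abhd6-203 lies between 14.6% and 19.7% in AM6545 and between 0% and 9.43% in vehicle, while Mgll-209 stays between 32.8% and 34.8% in all 7 libraries.

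Mgll had the most varied set, with 10 transcripts, and 3 stretches of sequence tell some of its forms apart. Exon 3 (chr6:88764596-88764702, 107 bases) is absent from Mgll-209, which the annotation puts in the nonsense-mediated decay class with an open reading frame of 47 residues. An extra exon (chr6:88813880-88813963, 84 bases) is found in Mgll-202 alone and keeps the frame, for 331 residues. Mgll-203 lacks a block of 135 bases (chr6:88823191-88823325) and codes for 258 residues, against 303 for Mgll-204. All 3 are on the plus strand of GRCm38. They do not tell Mgll-207 from Mgll-204, since both hold exon 3 and the block and lack the extra exon.
Mgll exon 3: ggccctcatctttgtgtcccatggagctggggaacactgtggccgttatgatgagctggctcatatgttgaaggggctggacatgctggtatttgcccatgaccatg
Mgll extra exon: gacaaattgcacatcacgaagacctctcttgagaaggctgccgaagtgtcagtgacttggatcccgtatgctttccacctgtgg
Mgll block absent from Mgll-203: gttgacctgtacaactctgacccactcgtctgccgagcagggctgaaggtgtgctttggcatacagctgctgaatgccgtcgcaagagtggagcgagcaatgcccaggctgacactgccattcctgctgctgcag
The printed serine codon of Mgll is kept in Mgll-202, Mgll-203, Mgll-204 and Mgll-207, and no match is present in the open reading frame of Mgll-209.

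Mgll-209 held 33.9% of Mgll counts in the mean of all libraries, and 49.3% per length, the highest of any form. Its share was 33.7%, 34.8%, 34.0% and 34.4% in AM6545 B, D, E and F and 34.3%, 33.3% and 32.8% in vehicle B, D and E, hardly varying between libraries. Mgll-207, which codes for 319 residues from a different first exon, held 24.7% in the mean. Its share was 37.1%, 20.005% and 19.8% in vehicle B, D and E and 20.6% to 30.1% in AM6545, so 1 vehicle library lay above every AM6545 library and the other two below. Without vehicle B its log2 fold change went from -0.55 to 0.05. Mgll-201, which begins at the same first exon, was listed at 0 in vehicle B and AM6545 F. In these libraries the share of Mgll-207 was the highest of its group. Mgll-201 held 7.85% to 12.8% in the other libraries. An estimate of 0 can be a failed assignment between similar transcripts, which was not tested, so the values of Mgll-207 alone are uncertain. Mgll-203 held 16.9%, and Mgll-202 held 6.24%.

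Mean CPM was lower in AM6545 for both the coding and the decay class of Mgll transcripts. Coding forms summed to 159 ± 17.8 CPM (SD, n = 4) in AM6545 and 213 ± 39.4 CPM (SD, n = 3) in vehicle, and forms of the decay class to 83.4 ± 10.8 CPM and 108 ± 23.6 CPM. The decay class was in effect Mgll-209 alone, since Mgll-208 was at 0 in every library. Its groups overlapped, with AM6545 D at 93.0 CPM and vehicle E at 87.8 CPM. Among single forms, Mgll-202 had an unadjusted p of 0.027 (log2 fold change -0.48, SE 0.17, edgeR adjusted p = 0.561), and its log2 fold change was -0.30 without vehicle B. Transcripts that begin at the upstream first exon took 32.0% ± 1.10 of AM6545 counts (SD, n = 4) and 30.3% ± 2.86 of vehicle counts (SD, n = 3), so the split between first exons overlapped between groups.

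Napepld was divided between Napepld-201 and Napepld-202. Napepld-202 took 42.1%, 52.9%, 53.6% and 43.9% of the gene's counts in AM6545 B, D, E and F and 34.4%, 52.1% and 36.7% in vehicle B, D and E. The shares overlapped, while its CPM did not, at 11.5 ± 0.404 (SD, n = 4) and 8.36 ± 2.10 (SD, n = 3; log2 fold change 0.46, SE 0.19, edgeR adjusted p = 0.578). Without vehicle B its log2 fold change was 0.28. The remaining transcripts with an unadjusted p under 0.05 were minor ones without a coding sequence. Abhd12-203, a processed transcript, had a log2 fold change of -0.52 (SE 0.16, edgeR adjusted p = 0.559) at 2.12% of Abhd12 counts, and Faah-202, a retained intron form, 0.97 (SE 0.35, edgeR adjusted p = 0.561) at 0.478% of Faah counts.

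Around the enzymes, 33 further genes of endocannabinoid signalling were listed, and 25 passed the filter. Those below it were Cnr2, Gpr55, Gpr18, Gpr119, Trpv1, Plaat5, Alox12 and Ces1d, with 41.0 counts or fewer each over all 7 libraries. None of the 25 was called by edgeR's adjusted p. The unadjusted p was under 0.05 for 3, with 2 lower (8.70% of all genes) and 1 higher (5.86% of all genes). Groups did not overlap for 3 with AM6545 lower (7.19% of all genes) and for 1 with AM6545 higher (6.63% of all genes). Fitted values were below 0 for 11 and above 0 for 14, with a median of 0.02, against 0.01 for all genes.

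The 5 receptors and receptor partners included 4 with fitted values above 0. Cnr1, which encodes the CB1 receptor that AM6545 binds, was at 104 ± 9.55 CPM (SD, n = 4) in AM6545 and 98.7 ± 16.5 CPM (SD, n = 3) in vehicle, with a log2 fold change of 0.07 (SE 0.12, edgeR adjusted p = 0.797). The receptor-binding proteins Cnrip1 and Gprasp1 had values of 0.10 and 0.19 (edgeR adjusted p = 0.618 and 0.493). Without vehicle E, Cnr1 was -0.01, Cnrip1 0.06 and Gprasp1 0.36, and without vehicle B, Cnr1 was 0.22 and Gprasp1 0.11. In the Gq branch that supplies diacylglycerol to the lipases, 5 of 10 genes were below 0 and 5 above. Its G protein subunit Gna11 was at -0.20 (edgeR adjusted p = 0.388), or -0.10 without vehicle B, and the phospholipase Plcb2 at 0.29 (edgeR adjusted p = 0.556).

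Of the N-acyltransferases, which make the precursors of anandamide, 3 were tested and 1 had a value below 0. Plaat1 was at 17.6, 17.6, 20.7 and 18.0 CPM in AM6545 B, D, E and F and at 11.2, 16.9 and 14.0 CPM in vehicle B, D and E. These groups did not overlap, with AM6545 higher, and the log2 fold change was 0.40 (SE 0.14, edgeR adjusted p = 0.261), or 0.25 without vehicle B and 0.20 with the GC and length correction. Plaat3 was at -0.19 (edgeR adjusted p = 0.394), with groups that did not overlap and AM6545 lower. Among 4 other lipid-metabolising enzymes (Ptgs2, Alox5, Naaa and Ddhd2), 1 was below 0.

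All 3 intracellular lipid carriers, proteins that ferry fatty acids and anandamide through the cytoplasm, had fitted values below 0, with a median of -0.33. Fabp3 was at 59.7, 63.7, 61.1 and 65.5 CPM in AM6545 B, D, E and F and at 88.8, 76.4 and 74.1 CPM in vehicle B, D and E, which did not overlap (log2 fold change -0.35, SE 0.10, edgeR adjusted p = 0.209). With the GC and length correction it was -0.04. Without vehicle E it was -0.40 (edgeR adjusted p = 0.0413, with 944 genes called over the whole table), and without vehicle B -0.27 (edgeR adjusted p = 0.651). Fabp5 was at 99.2, 114, 104 and 116 CPM in AM6545 B, D, E and F and at 166, 122 and 120 CPM in vehicle B, D and E. These groups did not overlap, again with vehicle B highest (log2 fold change -0.33, SE 0.12, edgeR adjusted p = 0.269). Without vehicle B the log2 fold change of Fabp5 was -0.16 (edgeR adjusted p = 0.819).

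The genes whose pattern over the 7 libraries was most like that of Mgll were Dact3, Cdk2ap1 and Slc1a2. Likeness was the root-mean-square difference of centred log2 CPM, which was 0.033, 0.049 and 0.049, against a median of 0.327 over all genes. These genes were picked as the smallest values over all tested genes other than the enzymes, so lying below the median follows from the choice. Slc1a2, the main glutamate transporter of astrocytes, was at 539, 767, 653 and 707 CPM in AM6545 B, D, E and F and at 1111, 823 and 789 CPM in vehicle B, D and E. As for Mgll, AM6545 B was the lowest and vehicle B the highest, which a choice by likeness favours. Slc1a2 is also 1 of the 8 astrocyte markers, whose summed level overlapped between groups as given above.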

How the data were processed

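The authors deposited estimated counts per gene and per transcript, with 1 column per library, and the submitters' processing notes name Salmon 1.5.2 and mm10; annotation release and strand setting are not given in the sources used here. Per the labels' protocols, RNeasy columns gave total RNA, and SMARTer Ultra Low Input reagents the libraries. Names, positions, lengths, GC content and sequences came from GENCODE M21 (GRCm38), matched without version numbers for 22148 genes and 101527 transcripts; 22135 of these genes carried a higher version in the deposited tables, so the sequences the authors counted against may not be the ones used here.

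Counts were rounded and tested with edgeR 4.0.16 (quasi-likelihood, robust, TMM, filterByExpr; limma 3.58.1, R 4.3.3) over all 7 libraries without covariates, and p-values were Benjamini-Hochberg adjusted over all genes or transcripts. SEs were derived from log2 fold change and the F statistic (absolute value over square root of F). DESeq2 1.42.0 and limma-voom were among the alternatives, with other scalings and filters, a GC and length correction (lowess, span 0.3), the replicate letter as a block and each library left out. Per-length levels used count-weighted transcript lengths. Intervals and limits for a count of 0 (3 counts) cover counting or model error only. The code was tested on simulated data. No library was a duplicate of another.

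The enzymes and the lists were chosen with earlier results of these data known. All 9 enzymes were named. Cnr1 and the 4 listed genes with the smallest p in each direction were named too, with transcripts holding at least 10% of a gene's counts or an unadjusted p under 0.05, and the 3 genes most like the enzyme with the smallest p. Other genes named stand as list members or as overlapping copies.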

Additional observations from a re-analysis of the deposited data

Results flagged for a closer look

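Of 48 gene and transcript values compared over the 4 AM6545 libraries, 2 had 1 library far from the other three, where chance gives about 2.4. Plaat1 was at 20.7 CPM in AM6545 E and at 17.6 to 18.0 CPM in the other AM6545 libraries. Napepld-202 was at 12.1 CPM in AM6545 D and at 11.3 to 11.4 CPM in the others. Vehicle, with 3 libraries, was not examined this way.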

How the results depend on the processing

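Over 20 alternatives per enzyme, the fitted sign held for Dagla, Mgll, Abhd6, Abhd12, Gde1, Faah and Napepld. The count of 1 gene called became 205 with DESeq2, 118 with limma-voom, 2 without robust estimation, 2 with a mean of at least 50 counts, 0 with the GC and length correction (988 genes at an unadjusted p under 0.05), and 0 to 944 with 1 library left out. The 944 came without vehicle E. The 0 came without AM6545 E (1677 unadjusted) or vehicle B (954 unadjusted). Called enzymes numbered 0, and 0 to 2 with 1 library left out; without vehicle E they were Mgll and Dagla. Listed pathway genes numbered 0, and 0 to 1. Transcripts called went from 6 to 431 with DESeq2, 10 with the mean of at least 50 counts, 0 with the replicate block (1597 unadjusted), and 1 to 14 with 1 library left out; among the enzymes' transcripts DESeq2 called 1.

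Log2 fold changes that changed sign were these. With total counts, Daglb was 0.0026, Abhd4 0.032 and Daglb-201 0.0046. With the replicate block Daglb was 0.0045, Abhd4 0.013 and Daglb-201 0.014, and with the block and the GC correction Abhd4 was 0.010. Abhd4 was 0.015 with limma-voom and 0.0046 without the filter, and Cnr1 was -0.0054 with the GC correction. With 1 library left out, Daglb ran from -0.084 to 0.044, Abhd4 from -0.095 to 0.077, Cnr1 from -0.012 to 0.22, Daglb-201 from -0.075 to 0.034, Mgll-207 from -0.81 to 0.054 and Napepld-201 from -0.075 to 0.26. The cause was not tested.

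Same-lettered libraries did not deviate together (correlations across genes of -0.255, -0.130 and -0.180). This check cannot show whether the letters mark shared animals, litters or days, which the labels do not state. With the replicate block 1 gene was called, higher in AM6545, while the 1 gene called without it was lower and was no longer called. Mgll was -0.43 with the block (edgeR adjusted p = 0.609). For Mgll the range over all alternatives was -0.51 to -0.24, and for Dagla -0.44 to -0.09.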
